A study of Mus musculus with 3 samples.

Results

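Cxcl1, Cxcl2, Cxcl3 and Cxcl15 encode CXC chemokines that draw neutrophils, and Cxcr2 encodes the receptor through which neutrophils sense such signals. These 5 genes were taken by their symbols from the 27998 genes of the deposited count matrices, and each symbol matched 1 gene. The data are single-cell RNA counts from dissociated lungs of C57BL/6 female mice aged 10 to 12 weeks, in 3 libraries with 1 library per group. FLASH mice received 17 Gy to the thorax from a 4.5 MeV electron accelerator at an ultra-high dose rate, called FLASH. CONV mice received 17 Gy from the same kind of beam at the conventional rate, and NI mice were not irradiated. The labels give isoflurane anaesthesia for the irradiated mice. No allele or other agent is named for any group. How many mice went into a library, and how long after irradiation the lungs were taken, are not given in the sources used here.

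CXC chemokines of this family are secreted by macrophages, epithelium, endothelium and fibroblasts at sites of damage or infection, and form gradients that guide neutrophils out of the blood. In macrophages the genes of Cxcl1, Cxcl2 and Cxcl3 are classical early targets of NF-kB, and their messenger RNAs are short-lived. Cxcl15, also called lungkine, is a chemokine of mouse lung epithelium that recruits neutrophils into the airways. Cxcr2 is carried mainly by mature neutrophils and also serves their release from bone marrow.

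All 4 chemokine genes lie on the + strand of chromosome 5 in mm10, the genome build of the files. From left to right they are Cxcl3 (chr5:90786103-90789600), Cxcl15 (chr5:90794534-90803067), Cxcl1 (chr5:90891241-90893115) and Cxcl2 (chr5:90903871-90905938). Cxcl5, Ppbp and Pf4, other chemokines of the family, lie to the left of Cxcl3 in the same cluster. Cxcr2 is on chromosome 1 (chr1:74153989-74161246, + strand). The stretches before the RefSeq start sites are shown for the chemokines because Cxcl1, Cxcl2 and Cxcl3, which the macrophages of these lungs held, share a short element that Cxcl15, held by alveolar epithelium, lacks. Each line gives the 140 bases up to the start site from RefSeq on GRCm38.p6, 5′ to 3′, with GGAATTTCC (a core letter sequence of NF-kB elements) and ATAAA (part of a TATA box) in capitals.
Cxcl1 (chr5:90891105-90891244, + strand): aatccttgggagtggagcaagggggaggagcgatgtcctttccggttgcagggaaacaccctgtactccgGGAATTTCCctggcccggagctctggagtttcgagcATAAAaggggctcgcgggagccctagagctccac
Cxcl2 (chr5:90903759-90903898, + strand): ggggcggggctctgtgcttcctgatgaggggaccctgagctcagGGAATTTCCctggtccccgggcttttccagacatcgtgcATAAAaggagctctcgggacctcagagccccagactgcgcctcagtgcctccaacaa
Cxcl3 (chr5:90785961-90786100, + strand): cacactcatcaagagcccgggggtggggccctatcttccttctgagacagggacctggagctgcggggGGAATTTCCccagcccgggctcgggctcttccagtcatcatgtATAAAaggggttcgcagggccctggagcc
Cxcl15 (chr5:90794394-90794533, + strand): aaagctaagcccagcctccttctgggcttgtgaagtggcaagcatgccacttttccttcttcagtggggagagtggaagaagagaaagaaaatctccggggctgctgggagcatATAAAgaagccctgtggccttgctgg
In the 250 bases before the start, GGAATTTCC was searched on both strands (GGAAATTCC on the other). Its first base lay 70 bases before the start of Cxcl1, 96 bases before that of Cxcl2 and 72 bases before that of Cxcl3. It was found in neither Cxcl15 nor Cxcr2, and in 94 of 32851 promoters of all genes (0.286%). The ATAAA stretch was searched on the gene's strand within 60 bases of the start and was found in all 4 chemokine promoters and in 7.48% of all promoters. The longest run of bases common to Cxcl1, Cxcl2 and Cxcl3 was 11 bases, GGGAATTTCCC, which holds the GGAATTTCC that was searched. The last 500 bases of the transcripts of Cxcl1, Cxcl2 and Cxcl3 each held 5 copies of ATTTA, the pentamer of AU-rich elements, against 0 in Cxcl15 and at most 1 in Cxcr2. At least 5 copies were found in 532 of 53477 protein-coding transcripts (0.995%). These matches describe letters in these windows and say nothing of binding or decay in these cells.

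The libraries held 2394 (FLASH), 2507 (CONV) and 1761 (NI) cell barcodes with 5498902, 7463259 and 7114360 unique molecular identifiers (UMIs, counts of single captured RNA molecules). FLASH cells were the shallowest, with a median of 1776.5 UMIs per barcode, against 2351 in CONV and 2960 in NI. After filtering, 2254 FLASH, 2387 CONV and 1704 NI cells fell into 25 classes by cluster, and the markers of lung epithelium, stroma, endothelium and immune cells were present. A class is called "like" a cell type from its markers only. The NI library stood apart in holding 129 thymocyte-like cells and 220 dividing cells led by Pbk and Rrm2, classes with 0 cells in the irradiated libraries. All 7 thymocyte markers, among them Rag1 and Dntt, were also raised in these dividing cells, whose leading genes held none of them. Libraries shared 7 barcodes (FLASH and NI), 7 (CONV and NI) and 5 (FLASH and CONV). The members and their close relatives were left out of the genes used to cluster. With 1 library per group there is no replicate check and no test, so differences are described as higher or lower. Brackets hold 95% intervals that cover counting error only, not differences between mice, dissociations or loadings.

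Cxcl2 and Cxcl1 were higher in both irradiated libraries than in NI, while Cxcr2 did not differ beyond counting error and Cxcl15 was nearly level. Over all kept cells Cxcl2 had 2422 UMIs in FLASH, 2377 in CONV and 1079 in NI, or 466, 335 and 157 CPM. CPM are the UMIs of the gene scaled to 1000000 UMIs of the library or class named. In these sums more cells of a type and more RNA per cell cannot be told apart. That level was 2.96 times as high in FLASH as in NI (2.75 to 3.18) and 2.13 times as high in CONV as in NI (1.98 to 2.29). Cxcl1 had 388 UMIs in FLASH, 209 in CONV and 118 in NI, or 74.6, 29.4 and 17.2 CPM. Its level in FLASH was 4.34 times that in NI (3.52 to 5.38) and 2.53 times that in CONV (2.14 to 3.01), and in CONV it was 1.71 times that in NI (1.36 to 2.16). Cxcl3 was close to the detection limit, with 10 UMIs in FLASH, 18 in CONV and 22 in NI. That is 1.92, 2.54 and 3.21 CPM, a FLASH to NI ratio with an interval from 0.253 to 1.32. The ratio was 0.365 without a small cluster led by Prg4 and Cd5l (0.121 to 0.929). Cxcl15 was at 914 CPM in FLASH, 1064 in CONV and 922 in NI. Cxcr2 had 17 UMIs in FLASH, 26 in CONV and 23 in NI. Without the thymocyte-like and Pbk classes found only in NI, the Cxcl2 level of FLASH was 2.27 times and that of CONV 1.63 times that of NI, and for Cxcl1 the ratios were 3.26 and 1.28. For Cxcl3 the ratio of FLASH to NI was then 0.450 (0.190 to 0.990). The Cxcl15 ratios then turned to 0.750 in FLASH and 0.873 in CONV, against 0.992 and 1.15 over all cells.

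Few cells carried most of the Cxcl1 and Cxcl2. Interstitial macrophage-like cells, resident macrophages of the lung connective tissue marked by C1qa, C1qc and Folr2, held 45.0% of the Cxcl2 UMIs of FLASH, 60.6% of those of CONV and 51.0% of those of NI. They made up 3.90% of FLASH, 3.81% of CONV and 1.70% of NI cells. A small unnamed cluster led by Prg4, Cd5l, Alox15 and Saa3 held another 30.8% in FLASH, 15.1% in CONV and 3.34% in NI. For Cxcl1 the interstitial macrophage-like cells held 36.3% in FLASH, 27.8% in CONV and 52.5% in NI, and the Prg4 cluster 40.2%, 32.5% and 0%. Expected levels were formed from the NI level of every class and the class sizes, as UMI totals, of each irradiated library. Cxcl2 would then have been at 337 CPM in FLASH and 265 in CONV, and Cxcl1 at 32.8 and 31.8. The observed Cxcl1 level was above the expected value in FLASH and slightly below it in CONV, while the observed Cxcl2 level was above it in both. The NI level of the Prg4 cluster came from 2 cells, with 0 Cxcl1 UMIs and 36 Cxcl2 UMIs. This cluster therefore added nothing to the expected Cxcl1, although it held 40.2% of the observed Cxcl1 in FLASH and 32.5% in CONV. For its part of the Cxcl1, cluster size and level per cell cannot be told apart.

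**Figure D1:**
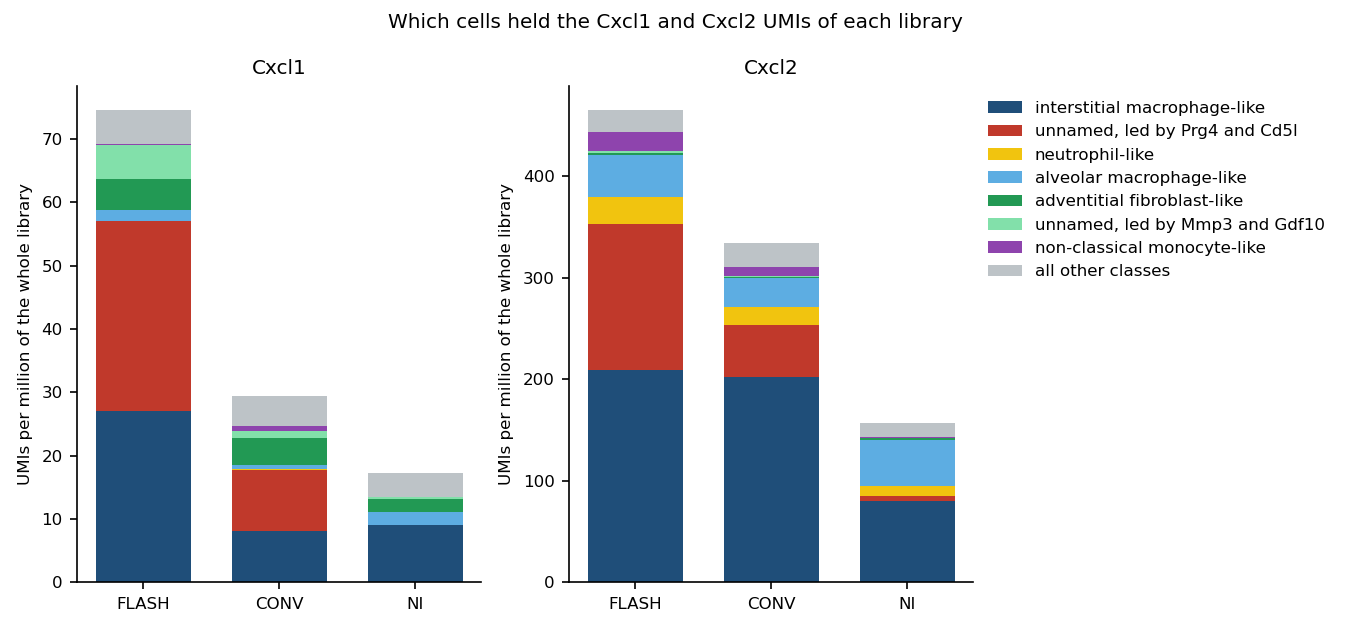
Stacked bars of Cxcl1 (left) and Cxcl2 (right) CPM of the whole library in FLASH, CONV and NI, split by the class of the cell that held them. Interstitial macrophage-like cells and the cluster led by Prg4 and Cd5l fill most of the FLASH bars (36.3% and 40.2% for Cxcl1, 45.0% and 30.8% for Cxcl2).

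In interstitial macrophage-like cells Cxcl2 was higher in both irradiated libraries than in NI and about level between them. The 88 FLASH cells held 1090 UMIs, the 91 CONV cells 1440 and the 29 NI cells 550. The levels were 5691 CPM in FLASH (5359 to 6039.6), 6193 in CONV (5877 to 6521) and 3958 in NI (3634 to 4303). FLASH was 1.44 times NI (1.30 to 1.60), CONV was 1.56 times NI (1.42 to 1.73), and FLASH was 0.919 times CONV (0.849 to 0.995). The share of cells in which Cxcl2 was seen hardly differed: with each cell thinned to 1000 UMIs it was 77.3% in FLASH (67.1 to 85.5), 80.2% in CONV (70.6 to 87.8) and 79.3% in NI (60.3 to 92.0). Without thinning the shares were 80.7%, 90.1% and 82.8%, at median depths of 1953.5, 2401 and 4465 UMIs. B-like cells, which should lack Cxcl2 and gauge free RNA, had it in 4.48% of FLASH, 1.05% of CONV and 0.873% of NI cells after thinning, at median depths of 1252, 1751 and 1910 UMIs. Without thinning their shares were 5.07%, 3.16% and 3.06%.

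Cxcl1 in the same interstitial macrophage-like cells was highest in FLASH. Over all cells of the class it was lowest in CONV, but the order of CONV and NI turned without the top 5 cells. FLASH held 141 UMIs, CONV 58 and NI 62, or 736 (619.7 to 868), 249 (189 to 322) and 446 (342 to 572) CPM. FLASH was 1.65 times NI (1.22 to 2.26) and 2.95 times CONV (2.16 to 4.08), and CONV was 0.559 times NI (0.384 to 0.813). Cxcl1 lay in few cells: 26 of 88 in FLASH, 19 of 91 in CONV and 9 of 29 in NI, with at most 25, 9 and 28 UMIs in 1 cell. Without the top 10% of cells of each library, FLASH was 2.73 times NI (1.39 to 5.88) and 4.61 times CONV (2.34 to 9.92). CONV was then 0.593 times NI (0.233 to 1.51), an interval that holds 1. Without the 5 cells with the most UMIs of each library, a larger share of the 29 NI cells, NI kept 5 of 62 UMIs. CONV was then 2.78 times NI (1.06 to 9.23). FLASH was 7.60 times NI (3.09 to 24.2) and 2.73 times CONV (1.72 to 4.43). After thinning, 25.0% of FLASH cells (16.4 to 35.4), 9.89% of CONV cells (4.62 to 17.9) and 17.2% of NI cells (5.85 to 35.8) had a Cxcl1 UMI. The unthinned shares were 29.5%, 20.9% and 31.0%. In thinned B-like cells 0 of 134 in FLASH, 0 of 95 in CONV and 0 of 229 in NI had one, for which the exact intervals reach up to 2.72%, 3.81% and 1.60%.

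Most interstitial macrophage-like cells with Cxcl1 also held Cxcl2, which most cells of the class held in any case. Among the thinned cells, 22 in FLASH, 9 in CONV and 5 in NI had Cxcl1, and 21, 9 and 5 of these had Cxcl2 as well. Cxcl2 was more common, and 68 FLASH, 73 CONV and 23 NI cells had it. Over all 5 members, those with at least 10 UMIs in both libraries together were read against the share of all such genes that differed at least 2-fold in the same class. In interstitial macrophage-like cells 0 of 3 measured members differed 2-fold between FLASH and NI, where 19.4% of 3830 genes did, and 0 of 3 between CONV and NI, where 20.4% of 4174 genes did. Between FLASH and CONV 1 of 3, Cxcl1, did so, against 13.8% of 4643 genes. Cxcl15, counted among these 3, was at 41.8 CPM in FLASH, 34.4 in CONV and 50.4 in NI. B-like cells, read as free RNA, had 57.4, 77.0 and 48.2, so it may be free RNA here.

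**Figure D2:**
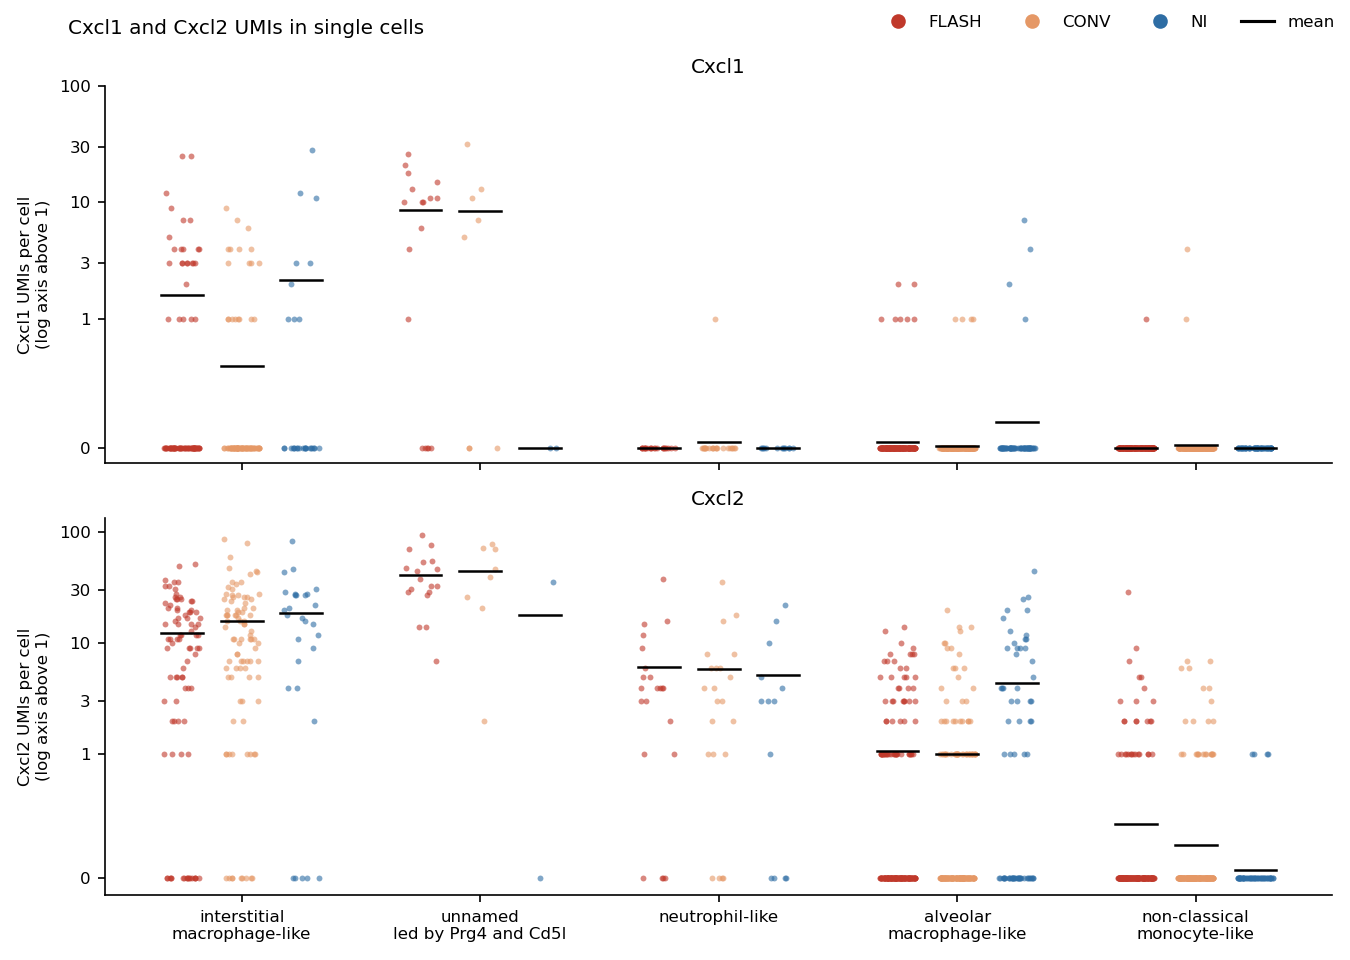
Each point is 1 cell, placed by its Cxcl1 (top) or Cxcl2 (bottom) UMIs on an axis that is linear up to 1 and logarithmic above, in 5 classes by library. Black lines are means. In the cluster led by Prg4 and Cd5l 18 of 18 FLASH and 8 of 8 CONV cells held Cxcl2, and Cxcl1 in interstitial macrophage-like cells was 0 in most cells of each library.

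The cluster led by Prg4 and Cd5l had the highest Cxcl1 and Cxcl2 levels of any class, by the mean over the libraries. It held 18 FLASH, 8 CONV and 2 NI cells, which is 0.799% (0.474 to 1.26), 0.335% (0.145 to 0.659) and 0.117% (0.0142 to 0.423) of each library. Of the interstitial macrophage markers 7 of 9 were raised in it, but its leading genes included Prg4, Alox15, Serpinb2, Il6 and Fn1, so it was left unnamed. Prg4 and Alox15 are known from resident macrophages of the mouse peritoneal cavity. Where these 28 cells came from was not tested. Prg4 was at 188 UMIs in the FLASH, 46 in the CONV and 29 in the NI cells of the cluster, against 1, 0 and 0 in the interstitial macrophage-like cells. Cd163, a listed interstitial marker not raised in the cluster, had 2, 0 and 0 UMIs there, against 57, 64 and 41. Mrc1, which is not on that list, had 0 UMIs in each library of the cluster, against 141, 152 and 68.

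Cxcl2 was present in all 18 FLASH and all 8 CONV cells of the Prg4 cluster and in 1 of the 2 NI cells. Its levels were 8795 CPM in FLASH (8175 to 9449), 7371 in CONV (6628 to 8174) and 3659 in NI (2563 to 5066), and the NI value is that of a single cell with 36 UMIs. Cxcl1 was at 1837 CPM in FLASH (1559.8 to 2149) and 1396 in CONV (1084 to 1770.0), with a UMI in 13 of 18 and 5 of 8 cells. NI had 0 Cxcl1 UMIs in 2 cells, where 3 counts would be 305 CPM. FLASH was 1.32 times CONV for Cxcl1 (0.983 to 1.78) and 1.19 times CONV for Cxcl2 (1.05 to 1.36). In CONV 1 cell held 32 of the 68 Cxcl1 UMIs. Without the top 10% of cells of each library, FLASH was 1.61 times CONV for Cxcl1 (1.09 to 2.41) and 1.17 times CONV for Cxcl2 (1.02 to 1.36). If these cells are counted with the interstitial macrophage-like cells, Cxcl1 in FLASH was 2.58 times NI (1.96 to 3.45) and in CONV 1.08 times NI (0.787 to 1.48), and Cxcl2 in FLASH was 1.04 times CONV (0.973 to 1.11). Without them, the library level of Cxcl2 in FLASH was 2.15 times NI (1.99 to 2.33) and that of Cxcl1 2.63 times NI (2.10 to 3.31). Without them the Cxcl1 level of CONV was 1.16 times NI (0.903 to 1.50).

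**Figure D3:**
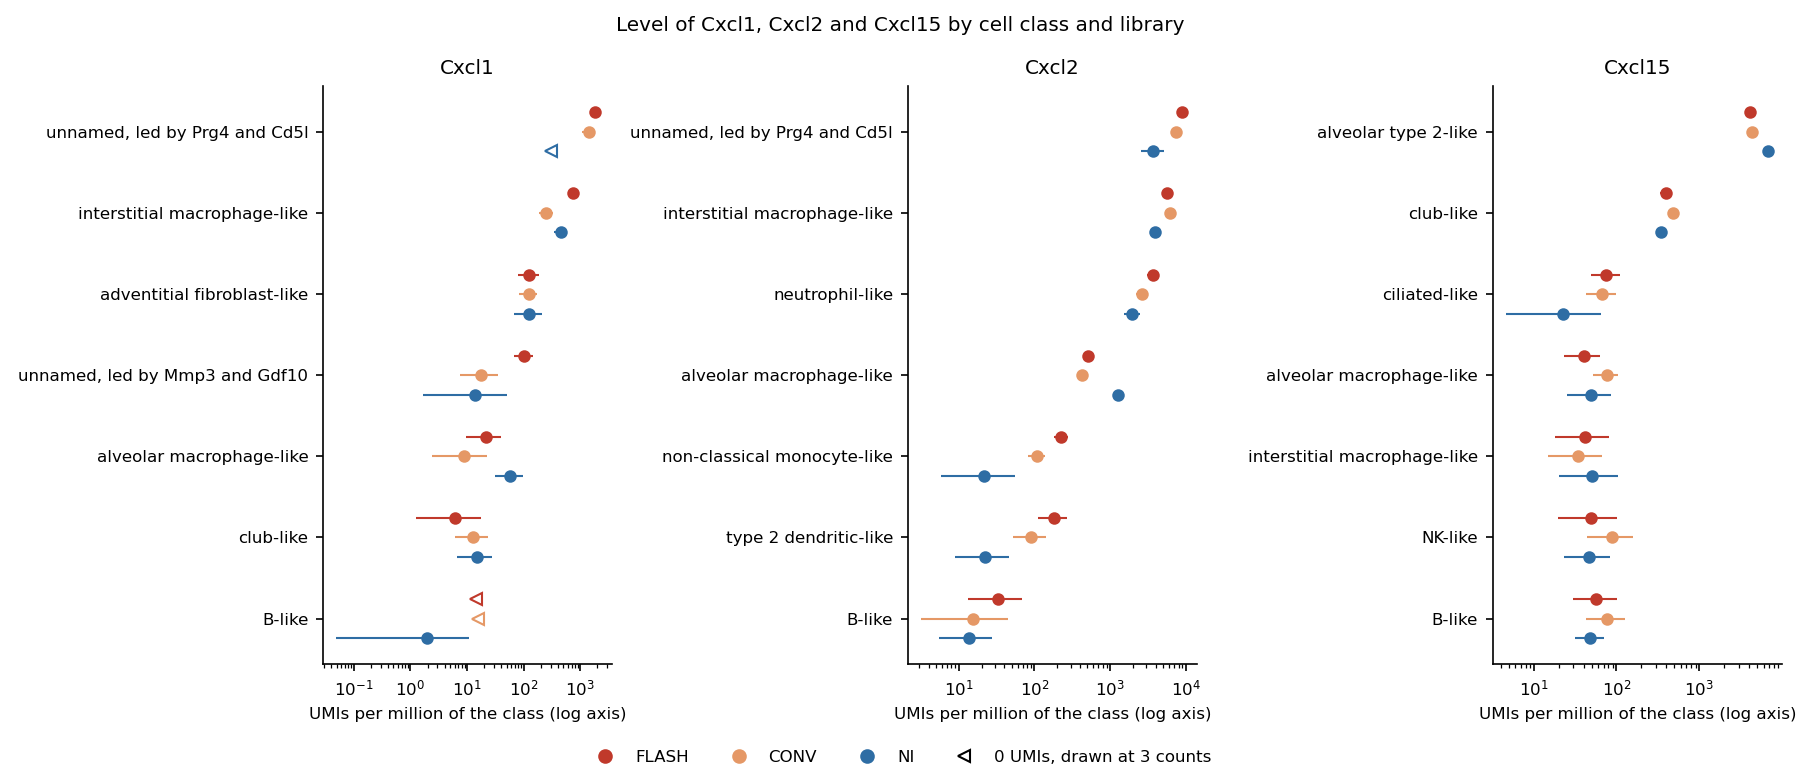
Level of Cxcl1, Cxcl2 and Cxcl15 in selected classes, in CPM of the class on a log axis, for FLASH, CONV and NI from top to bottom. Lines are 95% Poisson intervals and open triangles mark 0 UMIs, drawn at 3 counts. Cxcl2 in alveolar macrophage-like cells is highest in NI (1257), whereas in interstitial macrophage-like, neutrophil-like and non-classical monocyte-like cells NI is lowest.

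Alveolar macrophage-like cells, the resident phagocytes of the air spaces, differed the other way: Cxcl1, Cxcl2 and Cxcl3 were all lower in both irradiated libraries than in NI. Cxcl2 had 217 UMIs in 202 FLASH cells, 199 in 197 CONV cells and 307 in 70 NI cells. The levels were 511 (445 to 584), 431 (373 to 495) and 1257 (1120.4 to 1406) CPM. FLASH was 0.407 times NI (0.340 to 0.485) and CONV 0.343 times NI (0.285 to 0.411), while FLASH was 1.19 times CONV (0.974 to 1.45). Leaving out the top 10% of cells by Cxcl2 gave 0.274 (0.203 to 0.368) in FLASH and 0.179 (0.126 to 0.249) in CONV. A smaller share of FLASH and CONV than of NI cells held Cxcl2, so this cut itself lowers the ratios. Without the 5 cells with the most UMIs of each library, a larger share of the 70 NI cells, NI kept 171 of 307 UMIs. The ratios to NI were then 0.506 (0.406 to 0.631) in FLASH and 0.366 (0.289 to 0.463) in CONV. After thinning, 23.3% of FLASH (17.6 to 29.7), 18.3% of CONV (13.1 to 24.4) and 37.1% of NI cells (25.9 to 49.5) had a Cxcl2 UMI. The unthinned shares were 32.2%, 30.5% and 50.0%, at median depths of 1959, 2143 and 3355.5 UMIs.

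Alveolar macrophage-like cells held 25 of the 50 Cxcl3 UMIs of the series, most of them in NI. The class held 2 UMIs in FLASH, 3 in CONV and 20 in NI, in 2, 3 and 9 cells, or 4.71 (0.571 to 17.0), 6.50 (1.34 to 19.0) and 81.9 (50.0 to 126) CPM. FLASH was 0.0575 times NI (0.00652 to 0.237) and CONV 0.0793 times NI (0.0151 to 0.268). After thinning, 1 of 202 FLASH, 3 of 197 CONV and 3 of 70 NI cells had a UMI, levels near that of a single UMI from which no change in the share can be read. Cxcl1 had 9 UMIs in FLASH, 4 in CONV and 14 in NI, of which 7 lay in 1 NI cell. Of the measured members 3 of 4 were at least 2-fold lower in FLASH than in NI, where 14.2% of 6538 genes differed 2-fold either way, and 3 of 4 in CONV than in NI, against 14.3% of 6725 genes. Between FLASH and CONV 1 of 3, Cxcl1 on 13 UMIs in all, differed 2-fold, against 9.15% of 7292 genes. Cxcl15, counted among the measured members, was at 40.0 CPM in FLASH, 75.8 in CONV and 49.1 in NI. This was near the B-like level of free RNA (57.4, 77.0 and 48.2). Cxcl2 and Cxcl3 transcripts share 73 stretches of 98 bases, the length of the sequenced read, so single reads from those stretches cannot be told apart. In the protein-coding transcripts the nearest such stretch lay 850 bases from the 3′ end, where this assay captures few molecules.

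Genes raised by dissociation of tissue, a list of 16 immediate early and heat shock genes, were summed beside these levels since macrophage chemokines are known to be induced by handling as well. In interstitial macrophage-like cells they were at 14161 CPM in FLASH, 14704 in CONV and 15623 in NI. In alveolar macrophage-like cells they were at 4863 in FLASH, 4680.5 in CONV and 5172 in NI. In neutrophil-like cells they were at 8428 in FLASH, 5775 in CONV and 7062 in NI. The list was highest in NI in both macrophage classes, and its part in the chemokine levels was not tested.

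Neutrophil-like cells expressed Cxcl2 as well as its receptor. There were 22 in FLASH, 22 in CONV and 13 in NI, and all 10 neutrophil markers, among them S100a8, Csf3r and Ly6g, were raised in the class. Cxcl2 had 136 UMIs in FLASH, 130 in CONV and 67 in NI, or 3650.3 (3063 to 4318), 2598 (2170.4 to 3085) and 1955 (1515 to 2483) CPM. FLASH was 1.87 times NI (1.38 to 2.54) and 1.41 times CONV (1.10 to 1.80), and CONV was 1.33 times NI (0.982 to 1.81). Without the top 10% of cells of each library, FLASH was 2.17 times NI (1.38 to 3.48) and CONV 1.47 times NI (0.926 to 2.37). In each library most of these cells held Cxcl2: 18 of 22 in FLASH, 18 of 22 in CONV and 9 of 13 in NI. Their Cxcl1 was at 0 UMIs in FLASH, 1 in CONV and 0 in NI, and their Cxcl3 at 0 in all 3 libraries.

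Cxcr2 was highest in neutrophil-like cells, which held 27 of its 66 UMIs. FLASH had 7 UMIs in 6 of 22 cells, CONV 9 in 7 of 22 and NI 11 in 8 of 13. The levels were 188 (75.5 to 387), 180 (82.2 to 341) and 321 (160.2 to 574) CPM. FLASH was 0.585 times NI (0.192 to 1.65), CONV 0.560 times NI (0.205 to 1.49) and FLASH 1.04 times CONV (0.331 to 3.15), and every one of these intervals holds 1. After thinning, 18.2% of FLASH (5.19 to 40.3), 22.7% of CONV (7.82 to 45.4) and 46.2% of NI cells (19.2 to 74.9) had a UMI, against unthinned shares of 27.3%, 31.8% and 61.5% at median depths of 1695.5, 1894 and 2274 UMIs. In thinned B-like cells 1 of 134 in FLASH, 0 of 95 in CONV and 0 of 229 in NI had one. The 12 mast or basophil-like cells had 1 Cxcr2 UMI in each library. No Cxcr2 UMI was found in the 88 FLASH, 91 CONV and 29 NI interstitial macrophage-like cells, where 3 counts would be 15.7, 12.9 and 21.6 CPM, or in the Prg4 cluster.

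Cxcl2 was seen in a larger share of neutrophil-like cells with few UMIs of secondary granule genes than of those with many. Ngp, Camp and Ltf encode granule proteins made while neutrophils mature in the bone marrow. Their summed UMIs left a gap, with 48 cells at 8 or fewer and 9 cells at 40 or more. A limit of 20 UMIs, set after the values were seen, splits them. The granule-low cells had 323 Cxcl2 UMIs, in 42 of 48 cells, at 3332 CPM. The granule-high cells had 10 Cxcl2 UMIs, in 3 of 9 cells, at 406 CPM. These were 1 of 3 cells in FLASH, 1 of 4 in CONV and 1 of 2 in NI. Cxcr2 was seen in 18 of 48 granule-low and 3 of 9 granule-high cells. By library, granule-low cells had 4193 CPM of Cxcl2 in FLASH (19 cells), 3543 in CONV (18 cells) and 2162 in NI (11 cells).

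**Figure D4:**
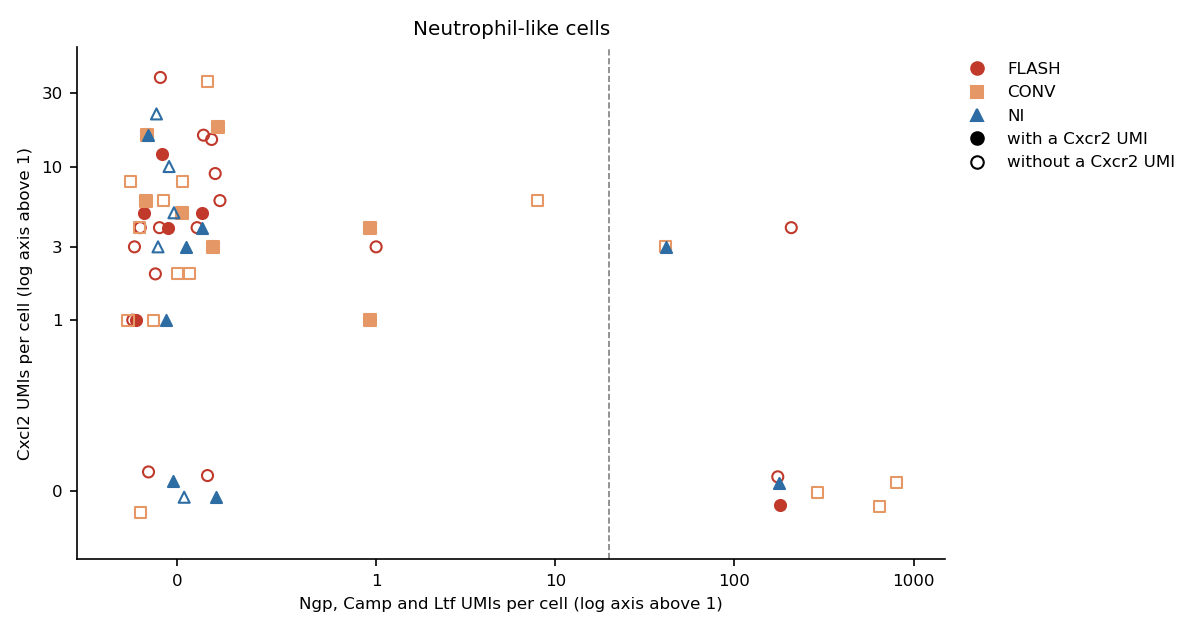
Each symbol is 1 neutrophil-like cell of FLASH, CONV or NI, placed by its summed Ngp, Camp and Ltf UMIs and its Cxcl2 UMIs, on axes that are linear up to 1 and logarithmic above, with small shifts that separate overlapping symbols. Filled symbols had a Cxcr2 UMI and the dashed line is the limit of 20 UMIs. Cxcl2 lay in 42 of the 48 cells left of the line and in 3 of the 9 cells right of it.

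Neutrophil-like cells were 0.976% of kept cells in FLASH (0.613 to 1.47), 0.922% in CONV (0.578 to 1.39) and 0.763% in NI (0.407 to 1.30), and these intervals overlap. Of non-lymphoid cells they were 1.29% in FLASH (0.811 to 1.95), 1.18% in CONV (0.743 to 1.79) and 1.84% in NI (0.984 to 3.13), so the order depends on the denominator. At a clustering resolution of 0.5 there were 12 such cells in each library.

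Other myeloid classes also held more Cxcl2 in the irradiated libraries. Monocyte-like cells of the non-classical kind, which crawl along vessel walls, had 96 UMIs in 220 FLASH cells, 59 in 223 CONV cells and 4 in 62 NI cells. The levels were 225 (182 to 275), 107 (81.1 to 137) and 21.3 (5.81 to 54.6) CPM, so FLASH was 2.11 times CONV (1.51 to 2.97). FLASH was 10.6 times NI (3.99 to 39.5) and CONV 5 times NI (1.85 to 19.0), both on 4 NI UMIs. The NI level was near that of free RNA, since B-like cells had 33.5 CPM in FLASH, 15.4 in CONV and 13.5 in NI. After thinning, 11.4% of FLASH, 7.62% of CONV and 1.61% of NI cells had a Cxcl2 UMI, against 13.6%, 11.2% and 6.45% without, at median depths of 1897, 2418 and 2970.5 UMIs. Of the FLASH UMIs 29 lay in 1 cell, and without the 5 cells with the most UMIs of each library (of 220 and 223) FLASH was 1.84 times CONV (1.12 to 3.07). Type 2 dendritic-like cells, which present antigen, had 21 UMIs in FLASH, 18 in CONV and 7 in NI, or 179 (111 to 273), 88.9 (52.7 to 140.4) and 22.4 (9.01 to 46.2) CPM. They lay in 7 FLASH, 3 CONV and 3 NI cells, with 16 of the 18 CONV UMIs in 1 cell. The leading genes of this class included Siglech, Klk1 and Xcr1, markers of other dendritic cells, so it may mix dendritic types.

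**Figure D5:**
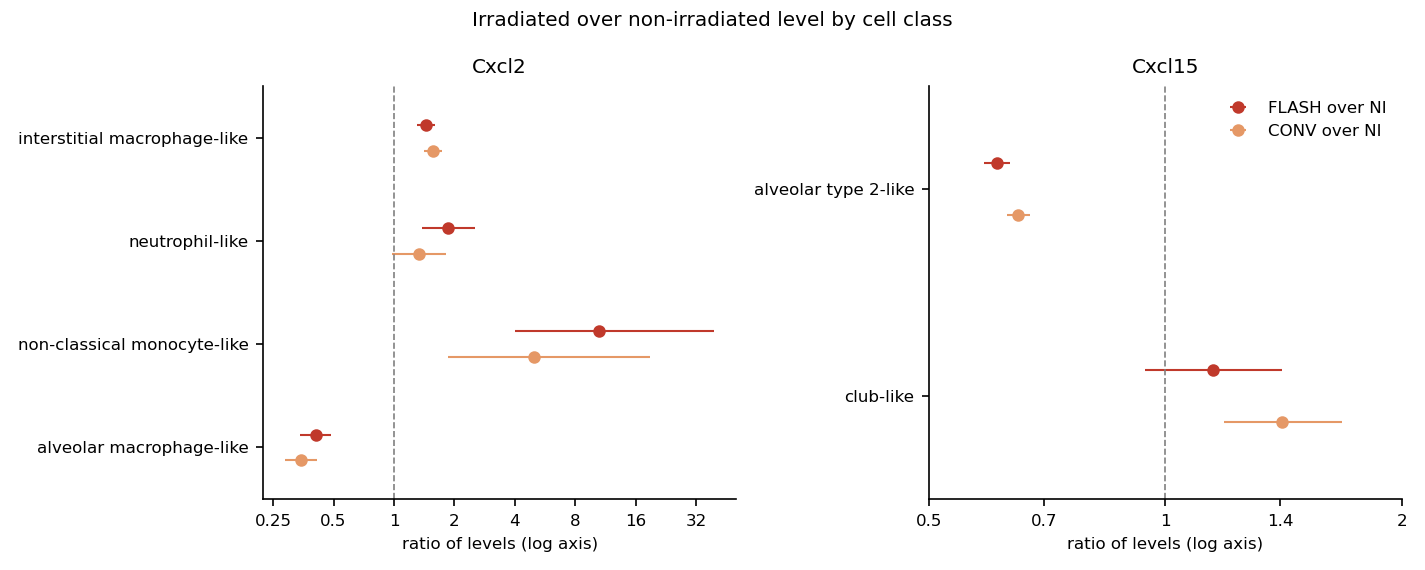
Ratios of the level in FLASH or CONV to that in NI on log axes, for Cxcl2 in 4 myeloid classes and Cxcl15 in 2 epithelial classes, with 95% intervals. Cxcl2 is above 1 in interstitial macrophage-like cells (1.44 and 1.56) and below 1 in alveolar macrophage-like cells (0.407 and 0.343).

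Among stromal cells, adventitial fibroblast-like cells, the connective tissue cells around vessels and airways, held Cxcl1 at like levels in the 3 libraries. They had 25 UMIs in FLASH, 31 in CONV and 14 in NI, or 123 (79.8 to 182), 123 (83.4 to 174) and 123 (67.4 to 207) CPM. FLASH was 1.00 times NI (0.501 to 2.08) and CONV 0.995 times NI (0.514 to 2.03), intervals that allow a 2-fold difference either way. In CONV 12 of the 31 UMIs lay in 1 cell. An unnamed stromal cluster led by Mmp3 and Gdf10 had 28 Cxcl1 UMIs in FLASH, 8 in CONV and 2 in NI, and 18 of those in FLASH lay in 1 cell.

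Cxcl15 was a gene of alveolar type 2-like cells, the surfactant makers, which held 92.5% of its UMIs over all libraries. In these cells it was lower in both irradiated libraries than in NI. FLASH had 4394 UMIs in 331 cells, CONV 6890 in 403 and NI 5948 in 135, or 4111 (3991 to 4235), 4378 (4275 to 4483) and 6733 (6563 to 6907) CPM. FLASH was 0.611 times NI (0.587 to 0.635), CONV 0.650 times NI (0.628 to 0.673) and FLASH 0.939 times CONV (0.904 to 0.975). Nearly every cell held it: 94.9% of FLASH (91.9 to 97.0), 95.3% of CONV (92.7 to 97.1) and 100% of NI cells (97.3 to 100) after thinning, and 99.4%, 99.8% and 100% without. The class made up 14.7% of FLASH, 16.9% of CONV and 7.92% of NI cells, and with the NI level in every class Cxcl15 would have been at 1437 CPM in the FLASH library and 1552 in the CONV library.

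Club-like cells, the secretory cells of the airway, held Cxcl15 at a lower level, with 192 UMIs in 41 FLASH cells, 374 in 65 CONV cells and 209 in 32 NI cells. The levels were 393 (339 to 453), 481 (433 to 532) and 341 (296 to 391) CPM. CONV was 1.41 times NI (1.19 to 1.68) and FLASH 1.15 times NI (0.942 to 1.41). One CONV cell held 49 of the 374 UMIs. B-like cells, read as free RNA, had 57.4 CPM in FLASH, 77.0 in CONV and 48.2 in NI, so the club-like level was above that of free RNA in every library. After thinning, 8 of 134 FLASH, 7 of 95 CONV and 12 of 229 NI B-like cells had a Cxcl15 UMI. Of club-like cells, 34.1% in FLASH (20.1 to 50.6), 24.6% in CONV (14.8 to 36.9) and 21.9% in NI (9.28 to 40.0) had one. By this share CONV did not stand out, and the intervals overlap.

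In alveolar type 2-like cells 1 of 3 measured members, Cxcl2, differed at least 2-fold between FLASH and NI, against 12.1% of 8661 genes, and the same gene between CONV and NI, against 12.3% of 9236 genes. It had 29 UMIs in FLASH, 40 in CONV and 6 in NI, or 27.1 (18.2 to 39.0), 25.4 (18.2 to 34.6) and 6.79 (2.49 to 14.8) CPM. B-like cells had 33.5 (13.5 to 68.9) in FLASH, 15.4 (3.17 to 45.0) in CONV and 13.5 (5.43 to 27.8) in NI, intervals that hold the alveolar type 2-like levels. These B-like levels rest on 7, 3 and 7 UMIs, too few to decide whether the alveolar type 2-like Cxcl2 is free RNA. In club-like cells Cxcl2 was also higher than in NI, 5.43 times in FLASH (1.49 to 29.7) and 4.46 times in CONV (1.29 to 23.8), on 3 NI UMIs. The levels were only 26.6 CPM in FLASH, 21.9 in CONV and 4.90 in NI. Those of FLASH and CONV lay within the B-like intervals, and that of NI below its B-like interval. After thinning, 0 of 41 FLASH, 2 of 65 CONV and 1 of 32 NI club-like cells had a Cxcl2 UMI. Whether the club-like Cxcl2 is free RNA was not tested. Back in alveolar type 2-like cells, 1 of 3 measured members, Cxcl1 on 17 UMIs in all, differed 2-fold between FLASH and CONV. There 7.91% of 9363 genes did.

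Genes around the chemokines were read in interstitial macrophage-like cells from lists of the pathway, as counts of genes with at least 10 UMIs that differed 2-fold. The shares of all genes given above for this class are the background, and the median log2 ratio of all genes was 0.12 for FLASH over NI, 0.13 for CONV over NI and -0.04 for FLASH over CONV. Of 16 other lung chemokines 12 were measured. In FLASH against NI 1 was higher and 3 were lower (median log2 ratio -0.14), and in CONV against NI 2 were higher and 2 lower (0.01). In FLASH against CONV 0 were higher and 2 lower (-0.32). Ccl7, which draws monocytes, was at 4491 CPM in FLASH, 4774 in CONV and 2166 in NI. Ccl4, a chemokine of activated macrophages, was at 621 in FLASH, 1608 in CONV and 1540.0 in NI. Ccl17, a ligand of Ccr4, was at 146 in FLASH, 589 in CONV and 166 in NI, and Cxcl13, which draws B cells, at 272, 245 and 684.

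Of 20 inducers and NF-kB pathway genes 15 were measured. In FLASH against NI 3 were higher and 0 lower (median log2 ratio 0.31), in CONV against NI 5 were higher and 0 lower (0.67), and in FLASH against CONV 0 were higher and 1 lower (-0.36). Tnf, a cytokine that induces these chemokines, was at 157 CPM in FLASH, 314 in CONV and 108 in NI. Tlr2, a receptor for bacterial lipoproteins, was at 240.2 in FLASH, 396 in CONV and 122 in NI. Il1b, the other main inducer, was at 1739 in FLASH, 2228 in CONV and 1799 in NI. Nfkbia, an inhibitor of NF-kB, was at 1828 in FLASH, 1978 in CONV and 1749 in NI. Tnfaip3, another inhibitor, was at 256 in FLASH, 267 in CONV and 468 in NI, so FLASH was 0.547 times NI (0.370 to 0.805) and CONV 0.570 times NI (0.396 to 0.820). Il1b and both inhibitors were chosen after their values were seen.

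Cebpb, a transcription factor of inflammatory macrophages, was at 1352 CPM in FLASH, 1789 in CONV and 93.6 in NI in the interstitial macrophage-like cells. FLASH was 14.5 times NI (8.31 to 27.5) and CONV 19.1 times NI (11.1 to 36.2). Over all kept cells of every class the ratios were 12.8 (11.6 to 14.2) and 15.4 (13.9 to 17.0), and in alveolar macrophage-like cells 1.98 (1.72 to 2.28) and 2.05 (1.79 to 2.36). The difference in Cebpb was thus also seen outside the cells that held most Cxcl2.

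Of 8 genes for decay and stability of chemokine messenger RNA, 6 were measured against NI, and 1 was higher and 0 lower in FLASH (median log2 ratio -0.29) and likewise in CONV (0.00). Zfp36, which binds AU-rich elements, was at 1049.5 CPM in FLASH, 1199.9 in CONV and 1144 in NI, and was chosen after its value was seen. Of 15 genes of neutrophil chemotaxis and receptor signalling 9 were measured, with 1 higher and 0 lower in FLASH (0.09) and likewise in CONV (0.16), in both cases against NI. Itgam, an integrin of myeloid cells, was at 136 in FLASH, 142 in CONV and 64.8 in NI. Of 5 endothelial adhesion genes 2 were measured, with 0 past 2-fold in FLASH and 1 lower in CONV, against NI. This gene, Vcam1, was at 308 in FLASH, 211 in CONV and 439 in NI. Of the 16 dissociation genes 15 were measured, with 0 higher and 1 lower in FLASH (-0.27) and 1 higher and 2 lower in CONV (-0.14), against NI. Among them Ier3, an early response gene, was at 579.6 in FLASH, 1122 in CONV and 345 in NI, and Atf3, a stress factor, at 768, 525 and 1281. In FLASH against CONV 0 of 7 decay genes, 0 of 2 adhesion genes and 0 of 15 dissociation genes differed 2-fold, and 1 of 10 chemotaxis genes was lower. Of the 5 other members of the chemokine family and its receptors, Pf4 alone was measured in these cells.

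Across 55 sums of a class in a library, each of at least 20 cells, the gene whose log2 level followed that of Cxcl1 most closely among 8425 genes was Slco2b1 (Pearson r 0.81), then Igf1 and Ccl8 (both 0.79). For Cxcl2 they were C5ar1 (0.89), Alox5 and Cd33 (both 0.87). For Cxcl3 they were Krt79 (0.68), Tnf (0.68) and Mrc1 (0.65), and for Cxcl15 the surfactant genes Sftpb (0.90), Sftpa1 (0.90) and Sftpd (0.89). Camp (0.91), Ngp (0.90) and Retnlg (0.85) were nearest to Cxcr2. Between Cxcl1 and Cxcl2 r was 0.57, and between Cxcl2 and Cxcr2 0.50. These values describe which classes hold the genes, and sums of the same library share its depth and preparation.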

How the data were processed

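Lung cell suspensions were profiled with the 10x Genomics 3′ assay in 3 libraries, 1 per group. The deposited values are counts of UMIs per gene and barcode, made by the authors using Cell Ranger 2.0 and mm10, per the submitters' processing notes. Barcodes under 200 genes (50) or above 10% mitochondrial UMIs (154) were removed. Scrublet scores were used to remove the top-scoring barcodes at 0.8% per 1000 barcodes of a library, 113 in all, since its automatic threshold marked 45 (0.697%). Cells were scaled to 10000 UMIs, logged and clustered (2000 variable genes without the members and 5 relatives, 30 components, 15 neighbours, Leiden resolution 1). Clusters were named from lists for 31 cell types when 3 or more markers reached 10% of the cluster's cells at 2 times their level outside it. A cluster stayed unnamed where its leading genes held no marker of the type while those of another cluster of that type did. These naming limits, the members, the gene lists and the markers were chosen with earlier results of these data known.

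Levels are UMIs summed over a class, scaled to 1000000 UMIs of it (CPM), with exact Poisson intervals. Ratios carry exact conditional binomial intervals and shares of cells Clopper-Pearson intervals, all at 95%. Thinning drew 1000 UMIs per cell, and shallower cells were left out (1 FLASH monocyte-like, 4 FLASH B-like). A count of 0 is set beside 3 counts. The genes named are the 5 members, list genes past 2-fold whose higher library held 30 UMIs or more, and the 3 genes most like each member by correlation of log2(level + 10), among genes with at least 200 UMIs. Gene positions are from GENCODE M21. Python 3.11.15, scanpy 1.11.5, numpy 2.4.6, scipy 1.17.1, pandas 2.3.3 and matplotlib 3.10.9 were used.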

Additional observations from a re-analysis of the deposited data

Results flagged for a closer look

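The following ratios stood out because the same comparison went opposite ways in 2 cell classes, with intervals on opposite sides of 1. The differences between classes were not tested, and each rests on 1 library per group.

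Cxcl2 in CONV over NI was 1.56 in interstitial macrophage-like and 0.343 in alveolar macrophage-like cells. For FLASH over NI it was 1.44 in interstitial macrophage-like, 1.87 in neutrophil-like and 10.6 in non-classical monocyte-like cells, against 0.407 in alveolar macrophage-like cells. For FLASH over CONV it was 1.41 in neutrophil-like and 2.11 in non-classical monocyte-like cells, against 0.919 (0.849 to 0.995) in interstitial macrophage-like cells. This last direction did not hold in other forms of the data. It was 0.992 (0.907 to 1.08) without the 5 cells with the most UMIs and 1.02 (0.928 to 1.13) without the top 10%. Without the 5 cells the neutrophil-like ratio was 1.50 (0.971 to 2.32), an interval that holds 1. Cxcl15 in CONV over NI was 1.41 in club-like and 0.650 in alveolar type 2-like cells. After thinning, the share of club-like cells with a Cxcl15 UMI was 24.6% in CONV and 21.9% in NI, with overlapping intervals.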

How the results depend on the processing

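Of the ratios and shares that answer a comparison, 162 of the recomputed values stayed within the main interval, 21 moved and 6 turned direction. Turning was counted only for ratios whose main interval leaves out 1. Turned values concern Cxcl1 in CONV over NI and Cxcl2 in FLASH over CONV, both in interstitial macrophage-like cells. With each cell classed from its own markers, Cxcl1 was 1.15 (CONV over NI) and 2.77 (FLASH over NI), Cxcl2 1.67 (FLASH over NI) and 1.07 (FLASH over CONV), and Cxcl15 0.596 (CONV over NI) and 0.570 (FLASH over NI). Without the 5 cells with the most UMIs, a larger share of the 29 NI cells than of the 88 FLASH or 91 CONV cells, Cxcl1 was 2.78 and 7.60 and Cxcl2 1.79 and 1.78 (CONV and FLASH over NI). Without the top 10% of cells, chosen after seeing the data, Cxcl1 was 2.73 (FLASH over NI) and 4.61 (FLASH over CONV), and Cxcl2 1.02 (FLASH over CONV). With the Prg4 cluster merged in, also chosen after seeing the data, Cxcl1 was 1.08 (CONV over NI) and 2.58 (FLASH over NI), and Cxcl2 1.69 (FLASH over NI) and 1.04 (FLASH over CONV). At a mitochondrial limit of 5%, Cxcl2 was 1.27 (FLASH over NI) and 0.848 (FLASH over CONV), and Cxcl15 0.710 (CONV over NI) and 0.658 (FLASH over NI). Without mitochondrial, ribosomal and haemoglobin genes, Cxcl15 was 0.673 in CONV over NI. The neutrophil-like share was 0.521% in FLASH and 0.492% in CONV at a limit of 20%, 0.532% and 0.503% at resolution 0.5, and 1.84% of non-lymphoid cells in NI. The causes were not tested. Thinning to 500 UMIs or none moved 10 of 30 shares of cells with a UMI. No paired analysis was possible because each group is 1 library, which also allows no leave-one-out. Depth limits Cxcl3 and Cxcr2, with 50 and 66 UMIs in all.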

Other observations

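Pf4, a platelet and macrophage chemokine next to Cxcl3 on chromosome 5, had 1244 UMIs in FLASH, 1012 in CONV and 431 in NI, or 239 (FLASH), 143 (CONV) and 62.8 (NI) CPM of the library. In interstitial macrophage-like cells, of which it is a marker, it was at 4934 CPM in FLASH, 3720.1 in CONV and 2605 in NI. Cxcl5, another epithelial neutrophil attractant, had 3 UMIs in FLASH, 2 in CONV and 6 in NI. Ppbp, a platelet chemokine, had 19, 4 and 8, and the second receptor Cxcr1 7, 2 and 3. Ackr1, the decoy receptor of vessels, had 1, 10 and 1. These counts are too low to compare.

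Single cells outside the myeloid classes held large amounts of Cxcl2. In T-like cells led by Tnfrsf4 and Cxcr6, 1 NI cell held 33 of 41 UMIs and 1 CONV cell 24 of 44, while FLASH had 3 in all. In adventitial fibroblast-like cells 1 NI cell held 15 of 16 UMIs. Whether these barcodes hold more than 1 cell was not tested.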
